A study of Mus musculus with 2 samples.

Results

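The genes described here encode the subunits of mitochondrial oxidative phosphorylation. They were chosen by name, as the non-control probes whose gene name begins with Ndufa, Ndufb, Ndufc, Ndufs or Ndufv, is Sdha, Sdhb, Sdhc or Sdhd, or begins with Uqcr, Cox4 to Cox8, or Atp5. Of 34650 gene names on the array, 92 met this rule through 135 probes, and 90 of the 92 were detected on at least 1 array, as were 25851 of all gene names. Among the 90 were 81 subunits, namely 36 of complex I, 4 of complex II, 8 of complex III, 18 of complex IV and 15 of complex V. The remaining 9 were 7 Ndufaf genes, which encode assembly factors of complex I, and Atp5s and Atp5sl, which are named after ATP synthase but encode no subunit of it. Ndufa4 and Ndufa4l2 were placed with complex IV, where the Ndufa4 protein is now assigned.

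RNA was compared between 2 mouse cultures, with 1 array for each. Both came from E14Tg2A, a single embryonic stem (ES) cell line of the 129/Ola strain kept on gelatin with 10% serum and 1000 U/mL LIF, the cytokine that holds ES cells undifferentiated. EpiSC, cells that resemble the epiblast after implantation, were obtained from ES cells in chemically defined minimal medium with N2 and B27, 20 ng/mL Activin A and 12 ng/mL FGF2. ELA-EpiSC received the same factors in the same medium, but came from Epiblast-Like Aggregates (ELA), clusters that ES cells form once serum and LIF are withdrawn. No allele or transgene differed between the groups according to the labels. Each RNA was a pool of 3 sets of experiments and 50 ng was labelled, per the labels, while the general methods of the study give a larger amount. The labels disagree on the material: their source fields speak of undifferentiated cells, with an Argonaute precipitate for EpiSC and total RNA for ELA-EpiSC. The titles, descriptions and molecule fields give total RNA of the stated cultures, and the groups follow them. With 1 array per group no difference has a replicate check and no test was possible, so all values are descriptions of these 2 arrays. A shift in RNA per cell and a shift in the share of cells of one kind cannot be told apart in such pools.

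Oxidative phosphorylation passes electrons from nutrients along complexes I to IV of the inner mitochondrial membrane to oxygen, and complex V, the ATP synthase, uses the resulting proton gradient to make ATP. Complex I oxidizes NADH, complex II is the succinate dehydrogenase of the tricarboxylic acid cycle, complex III hands electrons to cytochrome c, and complex IV is cytochrome c oxidase. Most subunits are encoded in the nucleus and a small set in mitochondrial DNA, so the complexes need transcripts from both genomes. Pluripotent cells are known for strong glycolysis, and the primed state is known for a lower reliance on respiration than the ground state.

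The transcripts were read by probes of 60 bases. The first 30 bases of the probe are given for Ndufaf4, Ndufb4, Cox7a1 and Cox7a2, the members with the largest differences between the arrays, because these letters are what each value measured. They are in lower case, in the sense of the transcript, and the mm9 coordinates are those of the whole probe as the array files give them; those of Cox7a1 run over more than the probe's length.

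Ndufaf4 at chr4:24829194-24829253: atacaagttcctgtgagttgagggccataa
Ndufb4 at chr16:37647711-37647770: ggacagaaaatttaacatctcctactaagt
Cox7a1 at chr7:30970337-30970948: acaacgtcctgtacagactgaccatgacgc
Cox7a2 at chr9:79603215-79603274: ctttggggatcaatatttattgatgtgtat

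Many promoters of these genes are bound by nuclear respiratory factor 1 (NRF1), and 30 bases around the NRF1 motif are shown for members whose promoter entry held this whole stretch before the start site. They are Ndufaf4 and Sdha, the members of this kind that were higher in ELA-EpiSC, and Ndufb4, Ndufa5 and Atp5k, the 3 with the lowest differences. The sequences are from RefSeq for build GRCm38.p6, read 5′ to 3′ on the strand of the gene, with the motif GCGCANGCG, in either orientation, in capitals. Where the capitals run over 10 letters, matches on both strands overlap.

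Ndufaf4, + strand, chr4:24897960-24897989: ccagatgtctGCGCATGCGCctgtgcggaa
Ndufb4, - strand, chr16:37654371-37654400: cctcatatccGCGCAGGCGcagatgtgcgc
Ndufb4, - strand, chr16:37654428-37654457: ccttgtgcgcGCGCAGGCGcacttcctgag
Ndufa5, - strand, chr6:24527697-24527726: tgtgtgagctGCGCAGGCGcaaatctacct
Atp5k, - strand, chr5:108434430-108434459: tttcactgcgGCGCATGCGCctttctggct
Sdha, - strand, chr13:74350276-74350305: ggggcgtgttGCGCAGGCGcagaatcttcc

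Most subunit transcripts gave a lower signal in ELA-EpiSC than in EpiSC on the quantile-normalised scale. Differences are log2 values of ELA-EpiSC minus EpiSC throughout. Of the 90 detected members, 69 were lower and 21 higher in ELA-EpiSC, and the median difference was -0.22, beside -0.01 over all 25851 genes. The quartiles were -0.47 and -0.02 for the members and -0.21 and 0.21 for all genes. This direction holds against the other genes on the array and not in absolute terms, since scaling to the spike-in RNA added 0.54 to every difference, moved the median of all genes to 0.53 and turned that of the members to 0.32. Relative to the median of all genes the members lay lower by 0.21 on both of these scales, with values from -0.44 to -0.19 over all 12 alternative settings.

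The error of a single difference could only be read from repeated spots and probes. Over 322 detected probes printed 10 times, the root mean square SD of the difference between spot pairs was 0.10, and 20 of the 90 members differed by less than that. Different probes of 1 member had a pooled SD of 0.13. Several probes were detected on both arrays for 30 members, of which 28 had all probes on the same side of 0, and in 0 did probes pass 0.5 in opposite directions. Some of these probes overlap, such as those of Ndufb4, which start at bases 371 and 394. Agreement between overlapping probes is not an independent check. The 6 probes of Atp5l, which encodes the g subunit of ATP synthase, overlap in part and gave differences from -0.56 to -0.34. These errors cover the spots and the probes, and neither labelling nor culture.

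Differences of at least 1 were rare among the members. Lower by that amount were 2 of 90 members, Cox7a1 and Ndufb4, where 3.34% of all genes were, and higher was 1, Ndufaf4, where 3.39% of all genes were. At a difference of 0.5 the members leaned one way: 18 of 90 were lower, or 20.0%, beside 10.5% of all genes, and 2 were higher, beside 10.6% of all genes. The members are bright: 67 of them had a mean log2 of 14 or more. Among all 2504 genes that bright, 7.55% were lower by at least 0.5 and 8.39% higher, against 12 and 0 of the 67 members. By at least 1, 1.16% of these bright genes were lower and 1.88% higher, against 1 and 0 of the 67. The shift of the members was thus a displacement of many genes by a small amount, with few large changes.

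**Figure D1:**
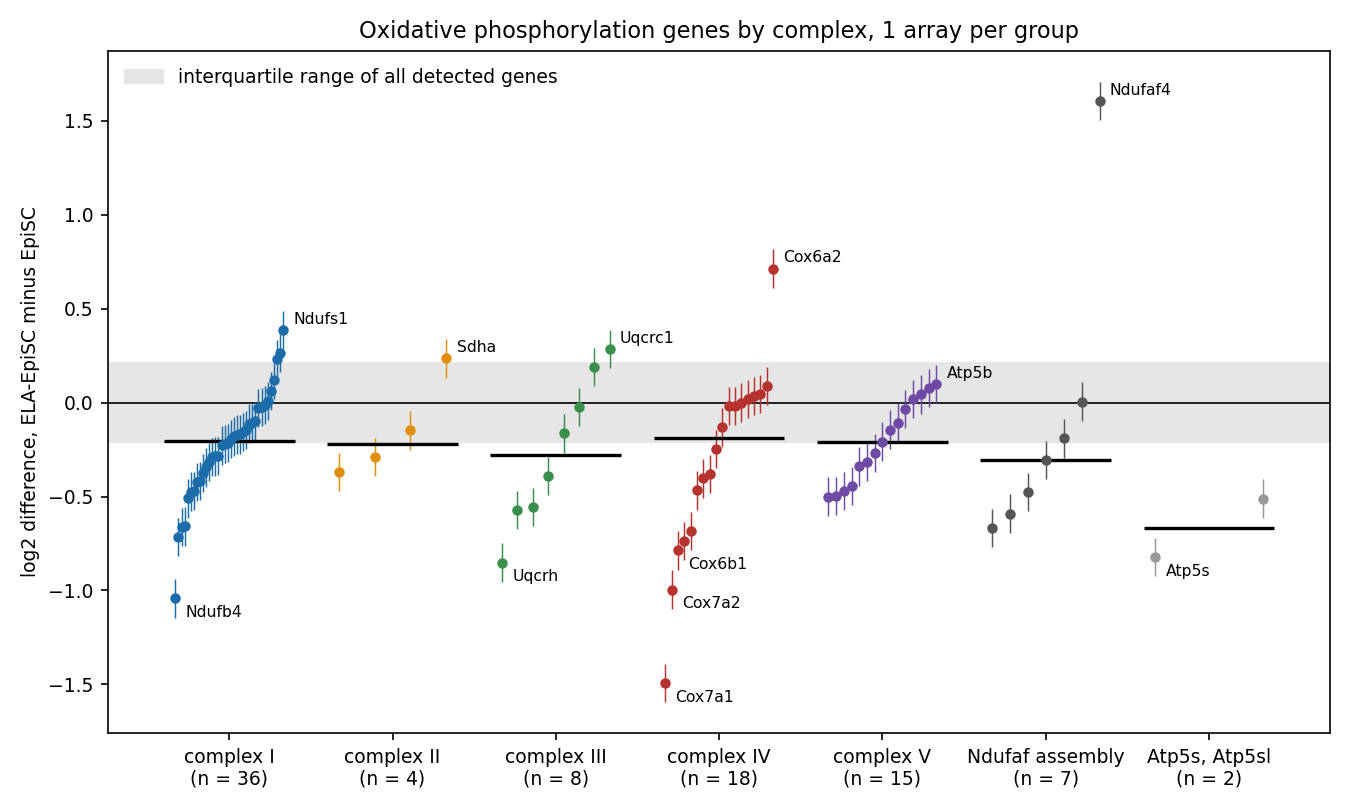
Log2 difference between the arrays (vertical axis, ELA-EpiSC minus EpiSC) for each of the 90 detected members, grouped by complex and sorted within it. Points are single genes with the spot SD of 0.10 as error bar, black bars are medians of each group, and the grey band is the interquartile range of all detected genes, -0.21 to 0.21. All 5 complexes have medians below 0, and Cox7a1, Cox7a2, Ndufb4 and Ndufaf4 stand farthest from it.

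All 5 complexes had medians below 0. The median difference was -0.20 for the 36 genes of complex I, -0.22 for the 4 of complex II, -0.28 for the 8 of complex III, -0.19 for the 18 of complex IV and -0.21 for the 15 of complex V, and spike-in scaling turned all 5 positive, to between 0.26 and 0.35. Lower in ELA-EpiSC were 30 of 36, 3 of 4, 6 of 8, 12 of 18 and 11 of 15 genes in this order. Whether these medians differ from each other was not tested. Spread within a complex differed more, with an interquartile range of 0.64 for complex IV, 0.59 for complex III, 0.39 for complex V, 0.31 for complex I and 0.26 for complex II. Placing Ndufa4 and Ndufa4l2 with complex I left its median at -0.20 and that of complex IV at -0.19.

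Complex I carries its electron path, from NADH through flavin and iron-sulfur clusters, in 7 nuclear-encoded core subunits. These core genes stayed near the other genes of the array, with a median of -0.11 and a range from -0.29 to 0.39. Ndufs1, the largest of the iron-sulfur subunits, measured 14.42 in EpiSC and 14.80 in ELA-EpiSC. Its difference of 0.39 was the highest of complex I. Ndufv1, which binds NADH and flavin, was at 15.34 and 15.46, so that the arrays differed by about the spot SD. Its partner Ndufv2 went from 14.86 to 14.65. Ndufs7, at the site of ubiquinone binding, went from 14.73 to 14.62, and Ndufs3 was at 14.93 and 14.92. Ndufs8, another carrier of iron-sulfur clusters, had the lowest difference of the core, with 12.36 and 12.07. Under spike-in scaling all 7 core genes were higher in ELA-EpiSC, and Ndufv1 turned lower on both 75th-percentile scales.

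The 29 accessory subunits of complex I, which surround the core and stabilise it, had a median of -0.23, positive under spike-in scaling, and 25 of them were lower in ELA-EpiSC. The difference reached furthest in the Ndufb and Ndufc genes, most of which encode small proteins of the membrane arm. All 12 were lower, 1 of them by less than the spot SD, with a median of -0.34. Spike-in scaling turned that median positive too. Ndufb4 fell from 15.86 in EpiSC to 14.81 in ELA-EpiSC, which is 2.06-fold, and both of its probes, which overlap, gave -1.04. Its difference stayed negative under all 12 alternatives, from -1.32 to -0.51. Ndufb3 went from 14.52 to 13.81, a difference of -0.72. Ndufa6 and Ndufa5, accessory subunits of the peripheral arm, each had a difference of -0.66, and the second probe of Ndufa5 gave -0.80. At the other end Ndufa12 and Ndufa10 were at 0.27 and 0.23, although Ndufa12 turned lower on both 75th-percentile scales.

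Assembly factors of complex I moved apart from each other. Ndufaf4, which helps to build the peripheral arm, was the member with the largest rise, from 12.52 in EpiSC to 14.13 in ELA-EpiSC, or 3.04-fold. Its second probe, which starts at base 1767 of the transcript rather than at base 677, gave 1.47, and the difference stayed at 1.44 or above under all 12 alternatives. By contrast Ndufaf1, Ndufaf3 and Ndufaf2 were at -0.67, -0.59 and -0.48, Ndufaf7 at -0.31, Ndufaf5 at -0.19 and Ndufaf6 at 0.01. The rise of Ndufaf4 was therefore not shared by the other 6 genes of that name. Of 8 further complex I assembly factors, Tmem126b was lowest at -0.65 and the median was -0.22.

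Complex II has 4 subunits, all nuclear. Sdha, the flavoprotein that oxidises succinate, measured 14.27 in EpiSC and 14.50 in ELA-EpiSC, and so differed by 0.24. Sdhb, its iron-sulfur partner, went from 15.07 to 14.92. The membrane anchors Sdhc and Sdhd, which hold the enzyme and bind ubiquinone, had differences of -0.37 and -0.29. The catalytic flavoprotein and the anchors thus lay on opposite sides of 0, except under spike-in scaling, where all 4 were higher, and on the processed-signal scale, where Sdha was at -0.01.

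In complex III the matrix-facing core proteins lay above 0 and the remaining members below it. Uqcrc1 and Uqcrc2, the core proteins, were higher in ELA-EpiSC, at 13.45 and 13.73 for Uqcrc1 and at 14.77 and 14.96 for Uqcrc2. The probe of Uqcrc2 was printed 10 times, and its difference of 0.19 had an SD of 0.07 over the 10 spot pairs. The remaining 6 genes were lower, of which 3 turned higher under spike-in scaling. Uqcrh, the hinge protein near cytochrome c1, fell from 16.03 to 15.18, a difference of -0.85. Its second probe, which overlaps the first, gave -1.16. Uqcr11, a small subunit, went from 15.27 to 14.70. Uqcrfs1, the Rieske iron-sulfur protein that carries the electrons onward, was at 14.55 in EpiSC with a difference of -0.56, so the lower group also held a catalytic subunit. Cyc1, the cytochrome c1 subunit, which the name rule does not cover, was higher in ELA-EpiSC, at 15.18 and 15.40. Uqcrh, Uqcr11 and Uqcrfs1 stayed negative under the 12 alternatives, whereas Uqcrc2 turned lower on both 75th-percentile scales. Under spike-in scaling, however, Uqcr11 and Uqcrfs1 were at -0.03 and -0.02, smaller in size than the spot SD.

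Complex IV held the widest range. Its catalytic subunits are mitochondrial genes, and the nuclear members regulate or stabilise the enzyme, several of them as pairs with a broad and a muscle form. Cox7a1, the heart and skeletal muscle form of subunit VIIa, measured 13.06 in EpiSC and 11.56 in ELA-EpiSC. This was 2.81-fold lower, the largest fall among the members. Cox7a2, the broadly expressed form, went from 14.98 to 13.98, a difference that fell short of 1 at -0.995. Cox7a2l, a related protein that takes part in supercomplexes of complexes III and IV, went from 16.50 to 16.04, with -0.76 and -0.40 from its other probes. So all 3 genes of this family were lower in ELA-EpiSC, except that Cox7a2l turned to 0.07 under spike-in scaling. Cox7a1 kept its sign in every alternative, from -1.55 to -0.96.

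Other paired forms of complex IV behaved differently from each other. Cox6b1 was lower in ELA-EpiSC, at 13.21 and 12.43, while its testis form Cox6b2 was at 11.89 and 11.91. Cox6a1 was at 17.29 and 17.16, while its muscle form Cox6a2 was dim, at 6.61 in EpiSC and 7.33 in ELA-EpiSC, near the lowest detected signals of 5.89 and 6.11. The difference of 0.71 for Cox6a2 was the highest of any subunit and ranged from 0.52 to 1.35 over the 11 alternatives that kept the gene. Cox4i1 was at 16.64 and 16.67, and Cox4i2, the form known for its response to low oxygen, was at 8.26 and 8.35. Cox7b and Ndufa4, both lower in ELA-EpiSC, had differences of -0.74 and -0.68, while Ndufa4l2, a paralogue of Ndufa4 that responds to hypoxia, was at 8.43 and 8.41. Cox5a, Cox5b and Cox8a, general subunits of the enzyme, had differences of 0.05, -0.02 and 0.00, smaller than the spot SD. Cox7b2 was detected on the EpiSC array alone, at 6.36 against 6.12. Its bound of 1.19-fold is the measured ratio itself, since 6.12 lay just above the lowest detected ELA-EpiSC signal of 6.11. The measured difference of Cox7b2, -0.25, became -1.996 with the processed signal and turned to 0.29 under spike-in scaling. Cox8b and Cox8c were not well above background on either array and have no difference.

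Complex V ran from -0.50 to 0.10. Of the 5 genes of the catalytic F1 head, Atp5b and Atp5a1, which form the hexamer that makes ATP, were at 17.33 and 17.43 and at 15.74 and 15.82, differences of 0.10 and 0.08 that did not exceed the spot SD. Both turned negative on the 75th-percentile scales. Atp5c1, the central stalk inside the hexamer, went from 15.94 to 15.63. Atp5e, the small epsilon subunit at its foot, was the lowest of the head, at 15.93 and 15.46, and Atp5d, its partner there, was at 14.39 and 14.42. Atp5g1, Atp5g2 and Atp5g3 encode one identical mature protein, the c subunit of the rotor ring, and all 3 were lower, with differences of -0.34, -0.11 and -0.21. Small subunits of the membrane part were the lowest, with Atp5k at 15.93 and 15.42 and Atp5j2 at 15.97 and 15.47. Under spike-in scaling the c subunit genes, Atp5c1, Atp5e, Atp5k and Atp5j2 all turned higher. Atp5s and Atp5sl, no subunits, had differences of -0.82 and -0.51.

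**Figure D2:**
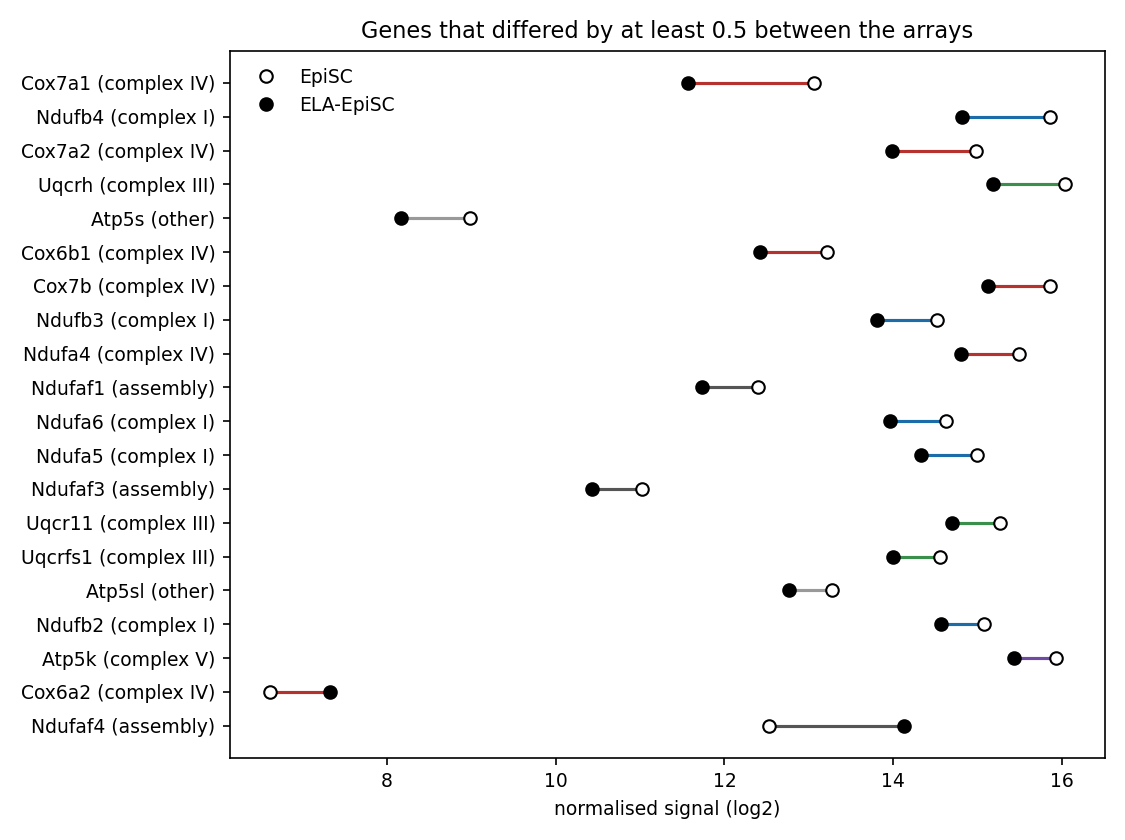
Normalised log2 signal on the EpiSC array (open circles) and the ELA-EpiSC array (filled circles) for the 20 members that differed by at least 0.5, sorted by the difference, with the line coloured by complex. The filled circle lies left of the open one in all but Cox6a2 and Ndufaf4; positions of different genes on the axis come from different probes and are not comparable.

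Differences moved together with the place of the probe in its transcript. Start positions were taken from the array files, for members with a RefSeq transcript. Over 85 such members the difference rose with the start position, with a Spearman coefficient of 0.33 across genes, and over 15762 other genes the coefficient was 0.22. Among the 1311 of these with a mean log2 of 14 or more it was 0.40. These genes share the 2 arrays and the labelling, so the coefficients are descriptions. The median start was at base 506 for the members and 2031 for the other genes. All 9 members with a start up to base 300 were lower, with a median of -0.29 beside -0.09 for 336 other genes. From base 301 to 600 the medians were -0.20 for 42 members and -0.14 for 1036 other genes, and from 601 to 1000 they were -0.07 for 14 members and -0.08 for 1831 other genes. From 1001 to 2000 they were -0.23 for 16 members and -0.01 for 4543 other genes. Beyond base 2000, the 4 members had a median of 0.16 and 8013 other genes one of 0.10. For complex I the median start was at base 899 over 6 core genes and at base 455 over 27 accessory genes. The array files give no transcript length, so position in the record and length of the transcript cannot be told apart here. The part of probe position in the differences of the members was not tested.

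**Figure D3:**
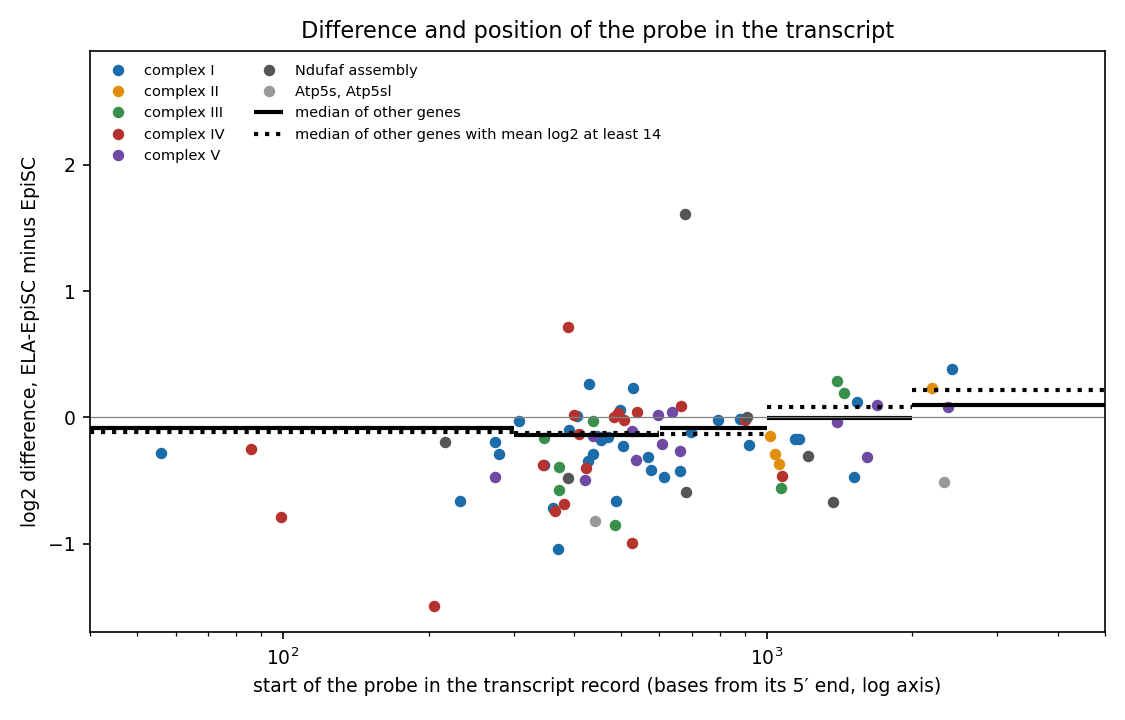
Log2 difference (vertical axis) against the start of the probe in the transcript record (horizontal log axis, bases from the 5′ end) for the 85 members with a RefSeq transcript, coloured by complex. Bars show the medians of all other genes (solid) and of the bright ones among them, at a mean log2 of 14 or more (dotted) in 5 ranges of position, which pass from -0.09 and -0.11 in the first range to 0.10 and 0.22 in the last; the last range runs on past the edge of the axis.

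Some probes could also have read related transcripts. Of the 90 chosen probes, 8 shared at least 48 of 60 bases with a probe of another name, those of Cox5b, Ndufb11, Cox6a1, Atp5h, Atp5l, Cox6c, Uqcrq and Ndufs6. None of these 8 genes differed by as much as 0.5. The values of these 8 genes are uncertain to that extent.

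Promoters of the members were searched for motifs of factors known to bind such genes. Promoter entries, from 250 bases before to 50 bases after the start, were matched for 75 of the 90 members through RefSeq symbols. The NRF1 motif stood in 22 of the 75, or 29.3%, beside 9.63% of all 17492 protein-coding genes and 12.5% of the 12580 detected here. The ETS motif CCGGAAG, which GABP can bind, was in 22.7% of member promoters, 12.9% of all and 16.4% of those detected. For the YY1 motif AAGATGGCG the counts were 8 of the 75, 2.14% of all and 2.85% of those detected, and for the ERR motif TCAAGGTCA they were 2.67%, 0.377% and 0.326%. The SP1 motif GGGCGG was in 45.3% of member promoters, 49.2% of all and 61.9% of those detected. Each motif was searched on both strands. In 69 promoters of mitochondrial ribosomal protein genes the NRF1 motif was in 23.2%, the ETS motif in 37.7% and the YY1 motif in 11.6%, so these shares were not particular to the members. The median difference was -0.30 over 20 subunits with the NRF1 motif and -0.22 over 47 without it. For the ETS motif the medians were -0.28 over 16 with it and -0.23 over 51 without. The order was reversed for SP1, at -0.20 over 28 with the motif and -0.31 over 39 without. It was also reversed for YY1, at -0.17 over 7 and -0.26 over 60. The ERR motif was in 2 subunits, with a median of -0.25, the same as in the 65 without it. The NRF1 motif stood in 5 of 14 subunits lower by at least 0.5 and in 3 of 18 with a difference above -0.1, beside 20 of all 67. The ETS motif stood in 4 of the same 14 and 2 of the 18, beside 16 of the 67. For SP1 the counts were 4 of the 14, 8 of the 18 and 28 of the 67. For YY1 they were 0, 1 and 7 of the same groups, and for ERR 0, 0 and 2. These groups were cut by the measured differences, and the counts were not tested. Ndufaf4 and Ndufb4, printed above, hold the same motif and lay on opposite sides of 0, at 1.61 and -1.04. The promoter entry of Cox7a1, the lowest member at -1.49, held no NRF1 motif. A match describes letters in the window and not a bound site.

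Regulators of mitochondrial gene expression had a median difference of 0.03 over 15 detected genes. Of these, 0 differed by 1 or more, where 3.34% of all genes were lower and 3.39% higher by that much, so in a list of this size the count is no result. Nrf1 was at 11.91 in EpiSC and 12.04 in ELA-EpiSC, and Gabpa, the DNA-binding subunit of GABP, at 10.98 and 10.81. Esrra, a nuclear receptor that activates respiratory genes, was lower with a difference of -0.53, and Ppargc1b, its coactivator, was dim and higher with 0.62. Polg2, the accessory subunit of the mitochondrial DNA polymerase, had the largest difference of the list, -0.82. Ppargc1a was not detected on either array.

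The subunits encoded in mitochondrial DNA were lower as well, in 12 of 13 genes with a median of -0.52. Spike-in scaling moved that median to 0.01, with 7 genes higher and 6 lower. ATP8 of complex V was at 15.44 and 14.38, and ND3 of complex I at 15.77 and 14.77. The catalytic subunits of complex IV lay closest to 0, with COX1 at -0.06, COX2 at 0.11 and COX3 at -0.06, followed by ND4 at -0.17. COX1, COX2 and COX3 were also bright, at 18.10, 17.72 and 17.39 in EpiSC. On both 75th-percentile scales all 13 genes were lower, COX2 included. The mitochondrially encoded genes thus ran from -1.05 to 0.11. The 81 nuclear subunits had a wider range, from -1.49 to 0.71, with 19 of them higher.

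Neighbouring pathways did not share one direction. The 77 mitochondrial ribosomal protein genes had a median of -0.18, with Mrpl14 at -1.45 and Mrps21 at -1.01 past 1, and the 76 cytosolic ribosomal protein genes one of -0.04, both turning positive under spike-in scaling. On the 75th-percentile scales the cytosolic list moved to -0.41 and -0.36, with 75 of 76 genes lower on each. Its genes were brighter than the members, with a median log2 of 17.56 against 14.94. Rpl10l, a dim gene of that list, was higher by 1.42. The tricarboxylic acid cycle and pyruvate dehydrogenase genes, which feed the chain with NADH and succinate, had a median of 0.13 with 14 of 21 higher, and this median turned negative on both 75th-percentile scales; their probes started at a median of base 1931. Pyruvate dehydrogenase subunits Pdhb and Dlat were at 0.65 and 0.74. Of 21 detected complex IV assembly factors 14 were lower, with Cox20 at -1.04, and the list median of -0.21 turned positive under spike-in scaling. The median of 29 glycolysis and hypoxia-response genes was -0.02, which spike-in scaling and the deposited values turned positive. Past 1 in that list were 4 of 29 genes lower, or 13.8% beside 3.34% of all genes, and 1 higher, beside 3.39%. They were Bnip3 at -2.29, Ankrd37 at -1.56, Egln3 at -1.52, the aldolase Aldoc at -1.27 and Ndrg1 at 1.22. In the whole list 16 genes were lower and 13 higher.

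Markers of other cell types also differed between the arrays. All 6 primed epiblast markers were detected on both arrays, with a log2 summed signal of 17.98 in EpiSC and 17.64 in ELA-EpiSC. Pou5f1 was at 14.27 and 14.46, Fgf5 at 15.19 and 15.34, Dnmt3b at 17.07 and 16.24, and Pim2 at 12.29 and 11.82. Of 6 visceral endoderm markers 4 were lower in ELA-EpiSC by at least 1, with a log2 summed signal of 13.91 in EpiSC and 10.91 in ELA-EpiSC. Ground-state markers were lower by that much in 3 of 6, with sums of 12.77 and 11.67. Neural markers were higher by at least 1 in 1 of 5 detected, with sums of 12.80 and 14.57, and mesoderm and fibroblast markers in 3 of 5, with sums of 11.53 and 12.49. The part of these cells in the shift of the oxidative phosphorylation genes was not tested.

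The direction of the shift depended on how the arrays were brought to one scale. All 8 detected spike-in probes gave less signal for ELA-EpiSC, with differences of -0.86 to -0.26, which is the source of the 0.54 added under spike-in scaling. The 75th-percentile scales shifted the median of the 2504 bright genes to -0.31 and -0.28 and that of the members to -0.52 and -0.48. In all 13 settings the members lay below the median of all genes.

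**Figure D4:**
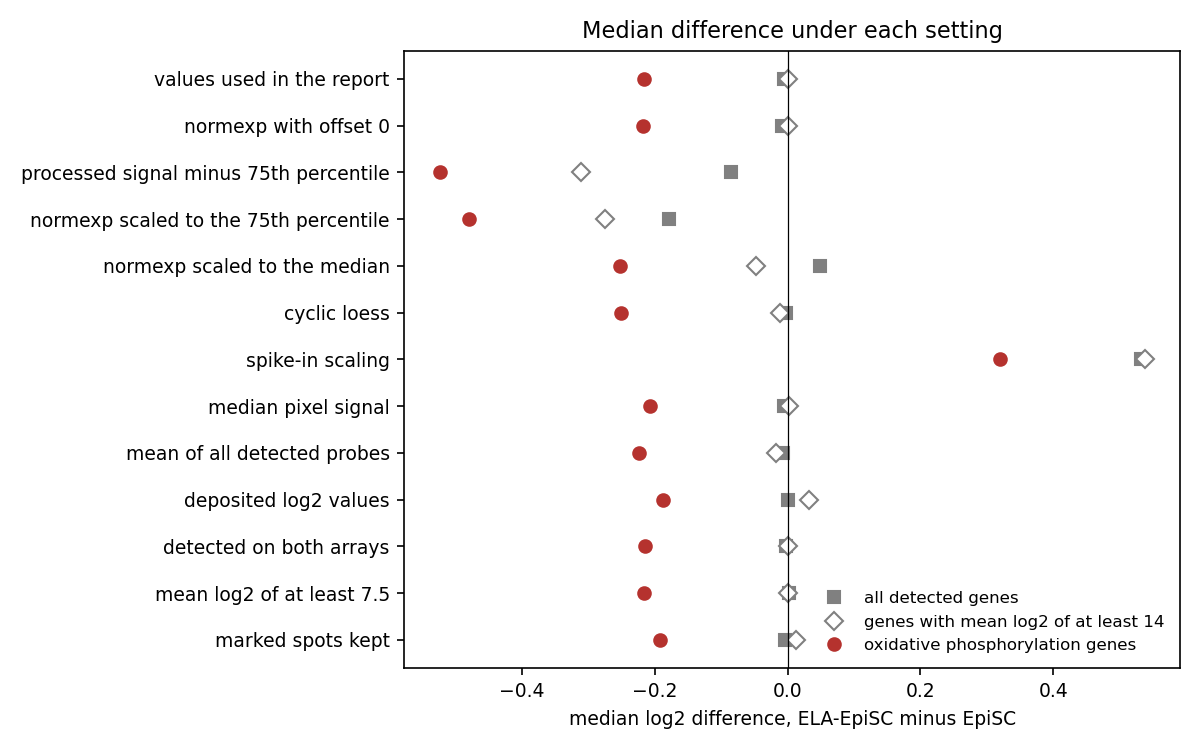
Median log2 difference (horizontal axis, ELA-EpiSC minus EpiSC) under the values used here and the 12 alternatives (rows), for the oxidative phosphorylation genes (circles), all detected genes (squares) and the bright genes, at a mean log2 of 14 or more (diamonds). The circle lies left of the square in every row, by 0.19 to 0.44, and right of 0 only under spike-in scaling.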

How the data were processed

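Each group had 1 one-colour Agilent mouse array. Linear spot intensity was taken from the deposited scanner output, made per the file headers with Feature Extraction 10.7.3.1, though the submitters' processing notes name version 9.1; probe coordinates are mm9. The authors also deposited log2 values, background-corrected and quantile normalized with limma, used as an alternative. Here, with limma 3.58.1 in R 4.3.3, mean signals were background-corrected by normexp with an offset of 50, control and outlier-marked spots were left out, and both arrays were quantile normalized and taken as log2. Detection required at least 0.5 of a probe's spots well above background, which 65.9% and 65.0% of 55681 probes met; 0 spots were saturated. The number of arrays limits the precision. A gene took its brightest detected probe. The bound for a gene detected on 1 array used the higher of its dim signal and the lowest detected signal there. Probe similarity came from blastn 2.17.0. RefSeq names (GRCm38.p6) were found for 90 members, by accession first; 3 carry another symbol there. Named members were those past 1, the extremes of each complex, paralogue pairs, core subunits, members detected on 1 array and list genes past 1; others were added after their values were seen. The members and lists were chosen with earlier results of these data known, and the brightness class, probe-position ranges and core grouping after the values were seen. Scripts were tested on simulated data. 12 alternatives were run. The values of 1 member are not reported here.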

Additional observations from a re-analysis of the deposited data

How the results depend on the processing

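With 1 array per group no replicate could be left out. No paired analysis was possible because EpiSC and ELA-EpiSC had 1 sample each. Signs were followed under the 12 alternatives for 41 named members, and other members given with values above were not counted. The 41 kept their sign except in small differences, and 0 of those past 1 changed it. The largest of the 41 that did was Atp5k, at 0.04 under spike-in scaling. Atp5sl, outside the 41, was at -0.51 and turned higher there too, since that scale added 0.54. Spike-in scaling changed the sign of 18 of 41 named members and turned the medians to 0.32 for all members and 0.33, 0.32, 0.26, 0.35 and 0.33 for complexes I to V, with 75 members higher and 15 lower, 28 higher and 2 lower by at least 0.5, and 2 higher and 0 lower by at least 1. The processed signal scaled to its 75th percentile gave -0.52 for all members, -0.44 relative to all genes, and -0.53, -0.45, -0.53, -0.61 and -0.60 for complexes I to V, with 7 members higher, 48 lower by at least 0.5, 6 lower by at least 1 and 2 higher by at least 1. Normexp at the 75th percentile gave -0.48 for all members and -0.46, -0.41, -0.56, -0.53 and -0.54 for the complexes, with 9 higher, 40 lower by at least 0.5 and 5 lower by at least 1. These scales moved all genes. Lower were 9.48% of all genes under spike-in scaling, 56.9% with the processed signal and 67.4% with normexp at the 75th percentile. For the members the shares were 16.7%, 92.2% and 90.0%. Shares of all genes past 0.5 or 1 on these scales are not given, so those member counts include the shift of the scale. Scaling to the median moved complex IV to -0.30. Higher by at least 1 were 2 members with offset 0 and with the deposited values, which left 1 lower by at least 1, and a minimum mean log2 of 7.5 left 1 member higher by at least 0.5. The cause of these shifts was not tested, apart from the constant that spike-in scaling adds. Dim members such as Cox6a2 and Cox7b2 are limited by signal over background.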
